A study of Mus musculus with 11 samples.

Results

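The genes described here encode the AMPA receptor and proteins that bind it. They are the 4 pore-forming subunits Gria1, Gria2, Gria3 and Gria4 and the 6 auxiliary proteins Cacng2, Cacng3, Cacng8, Cnih2, Cnih3 and Shisa9. The 10 genes were picked by name from the 48709 genes in the count tables as members of one receptor complex, and no measured value is part of that rule, although earlier results of these data were known when they were picked. The cells were hippocampal neurons taken from CD1 mouse embryos on embryonic day 17 and grown in a dish, with the hippocampi of several embryos pooled for a culture. Both groups received lipid nanoparticles together with ApoE4 on day 10 in vitro and were harvested on day 12 in vitro, 48 hours later. In the 5 mimic samples the particles held a synthetic copy of the microRNA miR-181a-5p, and in the 6 control samples they held a negative control oligonucleotide, so both groups carry the particle and ApoE4. Whether samples of a group came from separate cultures is not stated, and the tests measure the spread between these samples, which may be technical.

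AMPA receptors are glutamate-gated ion channels made of GRIA subunits, and they carry most of the fast excitatory current at synapses in the brain. The GRIA2 subunit decides whether the channel lets calcium through, because its messenger RNA is edited at one codon of the pore, and channels with edited GRIA2 admit little calcium. TARP proteins (the Cacng genes named here), cornichons (Cnih2 and Cnih3) and Shisa9 sit beside the pore and set how receptors leave the endoplasmic reticulum, reach the synapse, open and desensitize. A microRNA lowers messenger RNAs that pair with its seed, a short stretch near its 5′ end, mostly through sites in the 3′ untranslated region (3′ UTR).

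The question asked of these genes was whether the mimic changes the messenger RNA of the receptor. The mimic sequence matters because its seed decides which messenger RNAs it can pair with. Both oligonucleotides are printed 5′ to 3′ as the study lists them, with the seed (bases 2 to 8) in capitals, and the mimic is identical to mmu-miR-181a-5p in RefSeq (GRCm38.p6).
miR-181a-5p mimic: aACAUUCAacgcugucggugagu
negative control: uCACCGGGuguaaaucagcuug

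The annotated transcripts of the 10 genes (GENCODE M21, GRCm38) were searched on the sense strand for TGAATGT, which pairs with bases 2 to 8 of the mimic, for GAATGTA, which pairs with bases 2 to 7 and ends in A, and for GAATGT, the 6 bases that both contain. In 3′ UTRs, TGAATGT occurred in Gria2 and Cacng8 and GAATGTA in Gria3. Of 14489 tested genes with an annotated 3′ UTR, 19.7% held the former and 13.7% the latter. The shorter GAATGT was found in the 3′ UTR of 5 of the 10 genes (Gria2, Gria3, Cacng2, Cacng8 and Shisa9) and of 38.3% of all genes. The sites with TGAATGT or GAATGTA are shown with their flanks, the match in capitals, because they are places where the mimic could pair with receptor transcripts. At the Gria3 site the 6 bases GAATGT pair with the mimic.
Gria2 3′ UTR site 1, chr3:80688561-80688589, minus strand: tggcatgggaaTGAATGTcagtgtgactg
Gria2 3′ UTR site 2, chr3:80684187-80684215, minus strand: tgaagaatttgTGAATGTcttgtgtcctg
Gria3 3′ UTR site, chrX:41676983-41677011, plus strand: gtaaatctttaGAATGTAaatgtgacact
Cacng8 3′ UTR site, chr7:3394708-3394736, plus strand: gatgatgcgtgTGAATGTtttgtcagcgt
Gria2 coding site, chr3:80690417-80690445, minus strand: tacgataaaggTGAATGTggagccaagga
Gria4 coding site, chr9:4427043-4427071, minus strand: tacgataaaggTGAATGTggacccaagga

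The first Gria2 site lies 140 bases after the stop codon and was in both coding transcripts of the gene, while the second, 4514 bases after it, was in only 1 of the 2. Gria2 had the longest 3′ UTR of the 10 genes, 7268 bases, longer than that of 98.7% of genes. The Gria3 site was in 1 of 3 coding transcripts, 657 bases after the stop codon. The Cacng8 site was in 1 of 3, and that 3′ UTR of 371 bases belongs to a short transcript. The coding sites of Gria2 and Gria4 stand near the end of the coding sequence, at position 2376 of 2652 and 2379 of 2709, in 1 of 2 and 1 of 4 coding transcripts. Coding TGAATGT was held by 13.1% of 14521 genes. The read counts pool all transcripts of a gene and do not show which of these transcripts the neurons made. For the negative control seed, the matching CCCGGTG was in the 3′ UTR of 0 of the 10 genes and of 3.1% of all genes. A match is a description of the sequence and not evidence that the site is used.

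**Figure D1:**
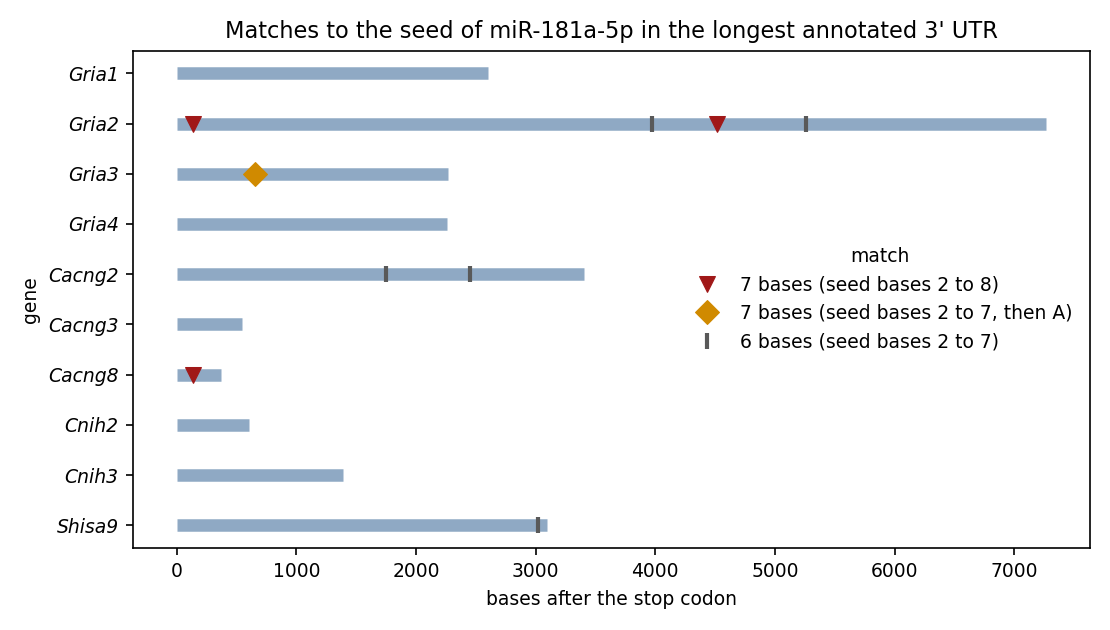
Longest annotated 3′ UTR of each of the 10 genes (bars, in bases after the stop codon) with every match to the mimic seed. Triangles mark the 2 matches to bases 2 to 8 in Gria2 and the 1 in Cacng8, the diamond the match in Gria3, and ticks the 6-base matches in Gria2, Cacng2 and Shisa9.

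Total counts ran from 17287168 to 48091231 per sample (control replicate 1 was the deepest), and a single member had between 105 and 40112 counts in a sample. Levels are given as CPM, that is, counts divided by the library size after TMM scaling. All 6 pan-neuronal markers were tested and together took 6757 to 6994 CPM, while 6 astrocyte markers took 2195 to 2630 CPM, so the cultures also held transcripts typical of glia. The summed ranges of both groups overlapped for the pan-neuronal, GABAergic, astrocyte, oligodendrocyte-lineage and microglia lists, the last with 12.6 to 13.8 CPM over 6 markers. They did not overlap for the 5 glutamatergic markers, with 3392 to 3525 CPM in control and 3130 to 3373 CPM in mimic samples. Of these, 3 were called, Slc17a7 and Camk2a lower and Slc17a6 higher (named here after their values were seen). Without control replicate 1, mimic replicate 2 or mimic replicate 4, 0 were called lower and 1 was called higher. The 9 fibroblast and vascular markers took 167.8 to 247.8 CPM in control and 258.0 to 351 CPM in mimic samples, with Cdh5 called higher and Rgs5 lower and Cldn5 at no more than 3 counts in any sample. The most abundant were Col1a1 (mean 62.2 CPM in control, 85.0 in mimic samples) and Col1a2 (78.9 and 115), named after their values were seen. They were not called (edgeR adjusted p 0.12 and 0.061). Of the 8 tested markers, 1 had a log2 fold change below 0, and 7 had an edgeR unadjusted p under 0.05. In bulk samples, fewer cells of a type and less RNA per cell cannot be told apart. The part of these shifts in the results on receptor genes was not tested.

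First, the levels of the 10 genes were compared with each other, which needs a scale per length. On CPM per kilobase of merged exons, Cnih2, a cornichon that helps receptors leave the endoplasmic reticulum, led the control samples with 278 ± 14.3 (SD, n = 6). Gria1, the subunit of most hippocampal AMPA receptors together with Gria2, followed with 139 ± 0.726, and Gria2 had 53.3 ± 1.87. In each of these steps every control sample of the higher gene lay above every sample of the lower.

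Cnih3, the second cornichon, had 23.6 ± 0.810 CPM per kilobase in control samples and Cacng8, the TARP known for its abundance in the hippocampus, 22.5 ± 2.26, and their ranges overlapped. Shisa9, a membrane protein that changes how receptors recover from desensitization, had 11.9 ± 0.133 CPM per kilobase and lay above Gria4 in every sample. Gria4 (9.74 ± 0.196), Cacng2 (9.38 ± 0.423) and Gria3 (8.38 ± 0.267) formed a row in which neighbouring ranges overlapped. Cacng3 was lowest with 2.41 ± 0.221, and the top gene was 115 times as high. The mimic samples gave the same order of the 10 genes.

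Cnih2 also stood above each of 20 other auxiliary and assembly proteins on this scale, but not when the longest transcript was the length, where Olfm1 (named after its values were seen) had 303 CPM per kilobase and Cnih2 283.5. The order of the middle genes among the 10 depended on the length as well. Divided by the longest transcript in place of all merged exons, Cacng8 moved above Cnih3 and Gria3 rose from place 9 to place 6, while Cnih2, Gria1 and Gria2 kept the first 3 places among the 10. Gria2 and Gria3 were the genes whose merged exons exceeded the longest transcript the most, with 15548 against 10371 bases and 9859 against 5206 bases.

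**Figure D2:**
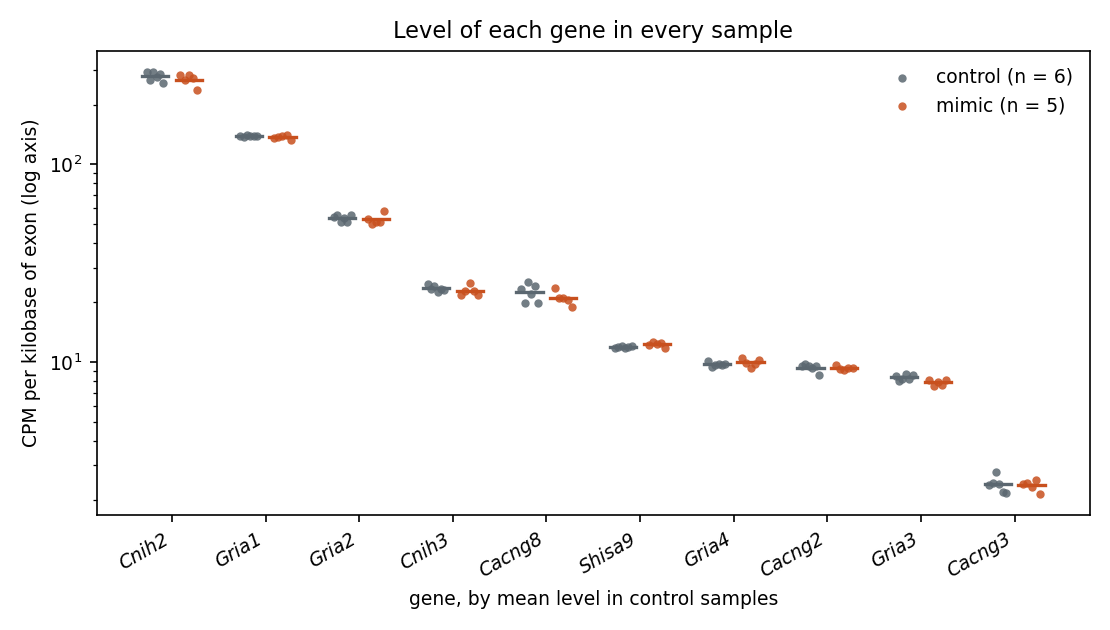
Level of each gene in all 11 samples, in CPM per kilobase of merged exons on a log axis, ordered by the control mean, with horizontal bars at the group means. Control means run from 278 for Cnih2 to 2.41 for Cacng3, and both groups give the same order.

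The make-up of the receptor messenger RNA was described as each gene's share of the summed level per kilobase. Receptor protein and its assembly were not measured. In control samples Gria1 made up 66.1% ± 0.713 of the messenger RNA of the pore-forming subunits (SD, n = 6), Gria2 25.3% ± 0.725, Gria4 4.62% ± 0.0793 and Gria3 3.98% ± 0.103. In mimic samples the shares were 66.0% ± 1.62 for Gria1 (SD, n = 5), 25.4% ± 1.43 for Gria2, 4.81% ± 0.200 for Gria4 and 3.80% ± 0.112 for Gria3. The groups overlapped for all 4 shares, and none of the group means differed by more than 0.184 percentage points. With the longest transcript as the length, Gria1 took 58.6% and Gria2 30.9% in control samples, a larger shift than that between the groups.

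Among the 6 auxiliary genes, Cnih2 took 79.9% ± 0.249 of the summed level in control samples and 79.7% ± 0.670 in mimic samples. Cnih3 (6.80% and 6.84%), Cacng8 (6.44% and 6.29%), Shisa9 (3.43% and 3.67%), Cacng2 (2.70% and 2.79%) and Cacng3 (0.693% in control samples) shared the rest, and each pair of ranges overlapped. The 4 subunits together had 210.5 ± 1.73 CPM per kilobase in control and 207.2 ± 2.12 in mimic samples, with overlapping ranges.

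Next, each gene was compared between mimic and control. None of the 10 genes passed the test: all 10 were measured well enough to be tested, and edgeR's quasi-likelihood test called 0 at an adjusted p under 0.05. The test called 495 of 17365 genes, 2.85%, of which 307 were lower and 188 higher in mimic samples. At an unadjusted p under 0.05, 1 of the 10 passed, Gria3, against 15.7% of all tested genes. DESeq2 and limma on the authors' normalized values also called 0. The CPM ranges of the groups overlapped for each of the 10, whereas 2.89% of all tested genes had ranges that did not. The log2 fold changes ran from -0.092 to 0.046 with a median of -0.022, against -0.00015 over all tested genes, and 8 of 10 were below 0.

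No 95% interval of the 10 genes reached below -15.6% (Cacng8) or above 9.90% (Cacng3). The narrowest was that of Gria1. These intervals are not adjusted for the number of genes tested. They cover messenger RNA alone. The study states that microRNAs can also inhibit translation, and read counts do not show protein levels.

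**Figure D3:**
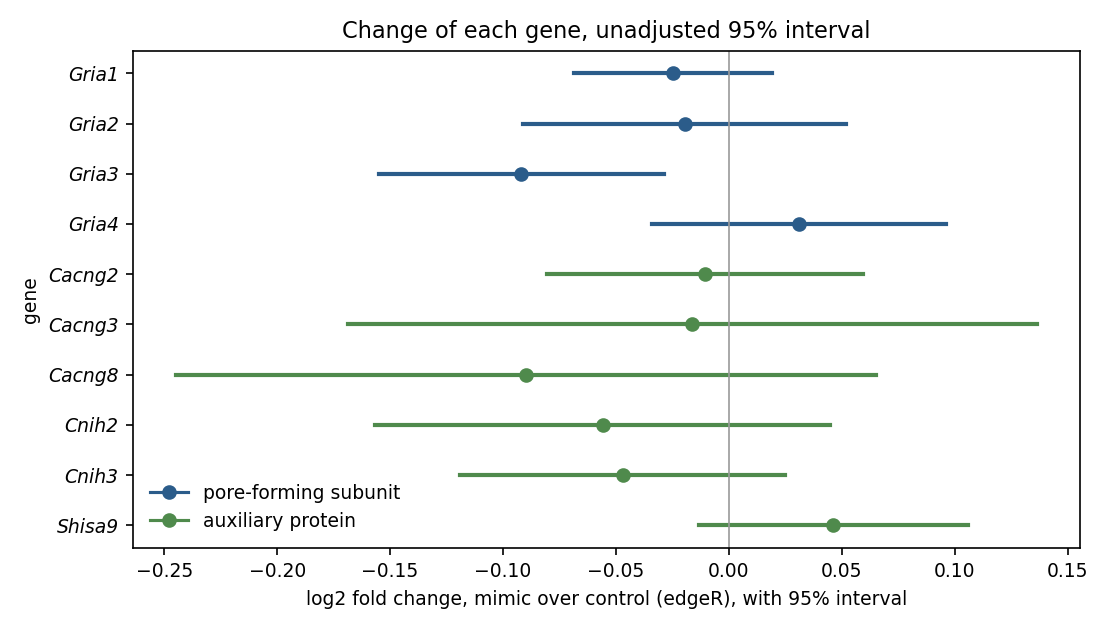
Log2 fold change of each gene, mimic over control (dot), with its unadjusted 95% interval from edgeR (line). The interval excludes 0 for Gria3 alone, whose adjusted p was 0.11.

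Gria1 (chr11:57011387-57330244, plus strand) encodes the subunit whose insertion at synapses is tied to long-term potentiation. Its control samples lay between 832 and 844 CPM with a median of 842.5, and the mimic samples 1 to 5 had 817, 826, 837, 848 and 803 CPM. Mimic replicate 4 was above every control sample and 3 mimic samples were below every control sample. The change was -1.70% (log2 fold change -0.025, SE 0.021, edgeR adjusted p 0.66), with a 95% interval from -4.64% to 1.32%. Without mimic replicate 5 the log2 fold change was -0.012. Gria1 was one of the most even genes in the data: its SD within groups was 0.021 on the log2 scale, and 0.696% of 13928 genes of at least 1 CPM had a smaller one.

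Gria2 (chr3:80681450-80802835, minus strand) carries 2 of the sites in 3′ UTRs shown above. It is the one gene of the 10 on the list of predicted miR-181a-5p targets that the study used. Control samples ranged from 790.4 to 859 CPM with a median of 835 CPM. The mimic samples 1 to 5 had 822, 777, 794, 790.3 and 906 CPM. The last was the highest of all 11 samples, while 2 mimic samples were below every control sample, so the mimic group spread on both sides of the control group. The change was -1.35% (log2 fold change -0.020, SE 0.034, edgeR adjusted p 0.86), and the 95% interval ran from -6.11% to 3.67%. Leaving out 1 sample at a time moved the log2 fold change between -0.00083 (without mimic replicate 2, edgeR adjusted p 0.997) and -0.057 (without mimic replicate 5, edgeR adjusted p 0.27), and it was between -0.0034 and -0.0040 without mimic replicate 3 or 4 or control replicate 2 or 6.

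Gria3 (chrX:41400854-41678601, plus strand) encodes the third pore-forming subunit, which pairs mostly with GRIA2. Control samples had 79.4 to 85.5 CPM with a median of 82.5 CPM, and mimic samples 1 to 5 had 79.8, 74.9, 78.2, 75.2 and 80.4 CPM. All 5 mimic samples were below the control median and 3 were below every control sample, but the groups overlapped. The change was -6.17%, with a 95% interval from -10.2% to -1.98% (log2 fold change -0.092, SE 0.031). The edgeR unadjusted p of 0.0059 became 0.11 after adjustment over all tested genes. Over the 19 alternative fits its adjusted p lay between 0.0764 and 0.317, and it was called in none of them.

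Gria4 (chr9:4417896-4796234, minus strand), a subunit known from inhibitory interneurons and the young hippocampus, had 59.8 to 63.5 CPM in control samples with a median of 61.3 CPM. Mimic samples 1 to 5 had 65.9, 62.2, 59.1, 61.9 and 64.9 CPM. With 2 mimic samples above and 1 below all control samples, the groups overlapped, and the change was 2.17% (log2 fold change 0.031, SE 0.032, edgeR adjusted p 0.73). The 95% interval was -2.34% to 6.88%, and the log2 fold change was 0.015 without mimic replicate 1 and 0.056 without mimic replicate 3.

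**Figure D4:**
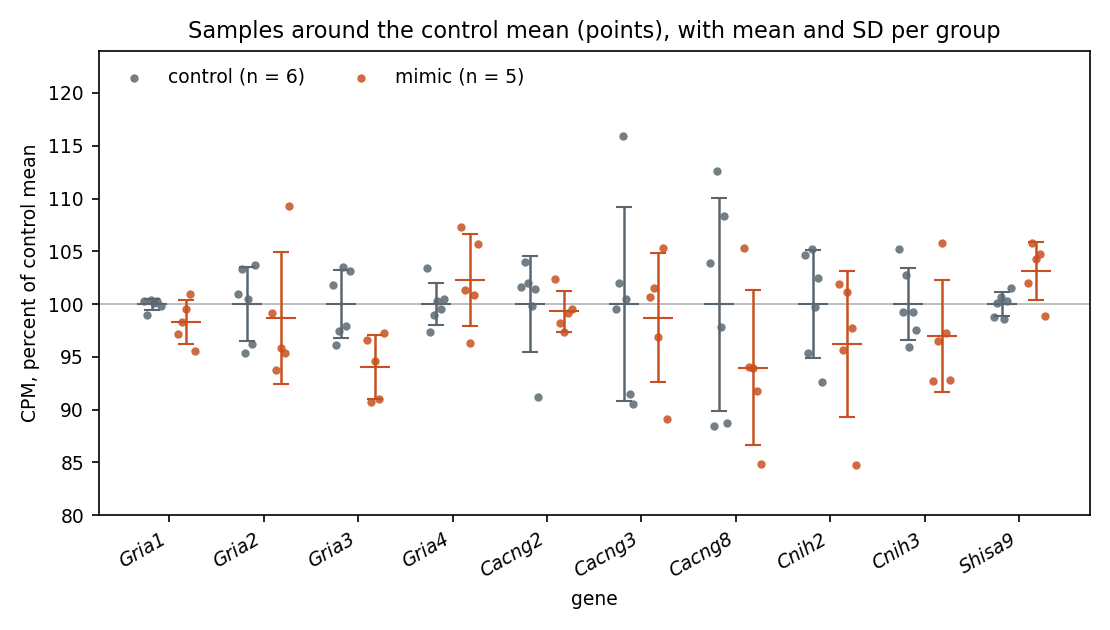
CPM of each sample as a percent of the control mean of the same gene (points), with the mean and SD of each group (bars); the axis starts at 80%. The groups overlap for all 10 genes, all 5 mimic samples lie below the control mean for Gria3, and Cacng3 and Cacng8 spread the most.

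The TARPs were compared next. Cacng2 (chr15:77991748-78120028, minus strand) encodes stargazin, which anchors receptors to the postsynaptic scaffold. Control samples had 47.1 to 53.7 CPM with a median of 52.5 CPM and mimic samples 52.9, 50.7, 50.3, 51.2 and 51.5 CPM, all within the control range. Its log2 fold change was -0.011 (SE 0.034, edgeR adjusted p 0.93), and control replicate 6, at 47.1 CPM, stood apart from the rest of its group. Cacng2 shares 323 exon bases with the antisense gene A730060N03Rik, which had 2237 counts over all samples, and reads there cannot be assigned to a strand with this kit.

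Cacng3 (chr7:122670492-122769393, plus strand), a TARP close to stargazin in sequence, was the least abundant of the 10. It had 6.06 to 7.76 CPM in control samples with a median of 6.70 CPM, and 6.74, 6.80, 6.49, 7.05 and 5.97 CPM in mimic samples. The groups overlapped over most of their range (log2 fold change -0.016, SE 0.074, edgeR adjusted p 0.95).

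Cacng8 (chr7:3390683-3415648, plus strand) showed the widest spread of the TARPs. Control samples ran from 46.6 to 59.3 CPM with a median of 53.1 CPM, and mimic samples had 55.5, 49.5, 49.5, 48.4 and 44.7 CPM. Of the mimic samples, 4 were below the control median and 1 was below every control sample. The change was -6.03% with a 95% interval from -15.6% to 4.62% (log2 fold change -0.090, SE 0.071, edgeR adjusted p 0.63). Without mimic replicate 5 the log2 fold change was -0.053, and without control replicate 3 it was -0.055. Within groups Cacng8 spread more than 78.0% of genes.

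Of the cornichons, Cnih2 (chr19:5092868-5098521, minus strand) had 352.5 to 401 CPM in control samples with a median of 385 CPM. Mimic samples 1 to 5 had 388, 364, 385, 372 and 323 CPM, and mimic replicate 5 alone was below every control sample. Its log2 fold change was -0.056 (SE 0.047, edgeR adjusted p 0.66), and without mimic replicate 5 it was -0.011. Its exons share 14 bases with Yif1a on the other strand. Cnih3 (chr1:181352628-181460641, plus strand) had 62.4 to 68.4 CPM in control samples with a median of 64.5 CPM. Its mimic samples had 60.2, 62.7, 68.7, 63.2 and 60.3 CPM, 2 of them below and 1 above all control samples, and the log2 fold change was -0.047 (SE 0.035, edgeR adjusted p 0.59), with -0.029 without control replicate 1 and -0.073 without mimic replicate 3.

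Shisa9 (chr16:11984113-12270902, plus strand) had the most positive value of the 10. Control samples had 61.5 to 63.3 CPM with a median of 62.5 CPM and mimic samples 63.6, 66.0, 65.0, 65.3 and 61.6 CPM. Although 4 of the 5 mimic samples were above every control sample, mimic replicate 5 was below 4 of the control samples, and the groups overlapped. The log2 fold change was 0.046 (SE 0.029, edgeR adjusted p 0.49), a change of 3.26% with a 95% interval from -0.915% to 7.61%. Like Gria1, Shisa9 was an even gene, with a smaller SD within groups in 3.13% of genes.

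The genes with TGAATGT or GAATGTA in a 3′ UTR can be set beside all genes of that kind. Of the 2852 tested genes with TGAATGT in a 3′ UTR, 4.52% were called lower and 0.701% higher, against 1.42% and 1.43% of the 11637 genes without it. For GAATGTA, 5.31% of 1979 genes were called lower, against 1.51% of 12510 without it. The median log2 fold change was -0.023 for genes with TGAATGT and -0.029 for genes with GAATGTA. Gria2, at -0.020, lay close to the median of its kind, while Gria3 and Cacng8, at -0.092 and -0.090, were below theirs, and none of these 3 was called. No test was run on these shares.

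Other genes of the AMPA receptor were then examined by list. Of 20 other auxiliary and assembly proteins, 2 fell and 0 rose, beside 1.77% called lower and 1.08% called higher of all tested genes. Shisa6, which holds receptors at the synapse, fell from 220.5 to 202.6 CPM (log2 fold change -0.12, SE 0.025, edgeR adjusted p 0.0078) with no overlap between groups. Frrs1l, which takes part in receptor assembly in the endoplasmic reticulum, fell from 361 to 341 CPM (log2 fold change -0.083, SE 0.022, edgeR adjusted p 0.035), also without overlap. Shisa6 was called in all 19 alternative fits, but Frrs1l in only 8, and its adjusted p reached 0.119. Over the 20 genes the median was -0.038 on the log2 scale, with 13 below 0, beside 50.1% below 0 over all tested genes. Without control replicate 1, 10 of the 20 were below 0.

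Of 32 genes for trafficking and synaptic anchoring, 5 fell and 0 rose, beside 1.77% and 1.08% of all tested genes. The median log2 fold change was -0.031 with 26 of 32 below 0, beside -0.00015 and 50.1% below 0 over all tested genes. Over the alternative fits 22 to 26 of the 32 were below 0, with 22 under upper-quartile factors. Prkca, a protein kinase C that phosphorylates GRIA subunits, fell from 448 to 411 CPM (log2 fold change -0.12, SE 0.022, edgeR adjusted p 0.0026). Nptx1, a secreted pentraxin that gathers receptors, fell from 369.5 to 339.9 CPM (log2 fold change -0.12, edgeR adjusted p 0.016), and its groups overlapped. Camk2a, a kinase of synaptic plasticity that also stands in the glutamatergic marker list, and Myo5a, a motor that carries receptors into spines, had log2 fold changes of -0.091 and -0.090 (edgeR adjusted p 0.030 and 0.032). Arc, an immediate early gene whose product removes receptors from the surface, fell by 0.21 on the log2 scale (edgeR adjusted p 0.049) although its groups overlapped.

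Prkca was called in all 19 alternative fits and Nptx1 in 18, whereas Camk2a was called in 11, Myo5a in 9 and Arc in 4. Over the members of these lists and the RNA editing enzymes, 7 genes were called, but 3 with upper-quartile factors and 2 without mimic replicate 2. Without control replicate 1, control replicate 4 or mimic replicate 4, 3 were called, and without control replicate 3, 5 or 6, 4 were called. The summed glutamatergic markers, given above, were lower in the same mimic samples.

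None of the 3 RNA editing enzymes was called by edgeR or in any of the 19 alternatives, and 0 had an unadjusted p under 0.05. Adarb1, which edits the pore codon of Gria2, averaged 165.5 ± 3.9 CPM (SD, n = 6) in the control group against 161.5 ± 6.88 CPM (SD, n = 5) with the mimic, a log2 fold change of -0.035 (edgeR adjusted p 0.62). Adar, which edits other sites, had a log2 fold change of 0.018 (edgeR adjusted p 0.82), and Adarb2, for which no editing activity is known, one of -0.056 (edgeR adjusted p 0.63). Gene counts do not show the editing itself.

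The other ionotropic glutamate receptor families were the most like sets. Of 7 NMDA receptor subunits, 3 fell and 0 rose, beside the same 1.77% and 1.08%. Grin2a, a subunit that gains weight as synapses mature, fell from 145 to 125 CPM (log2 fold change -0.21, SE 0.027, edgeR adjusted p 9.9e-05) with no overlap between groups. Grin2b, the subunit typical of young neurons, fell from 928 to 849 CPM (log2 fold change -0.13, edgeR adjusted p 0.015), and Grin2c fell from 13.6 to 10.8 CPM (log2 fold change -0.34, edgeR adjusted p 0.030). Without mimic replicate 2, Grin2b had an edgeR adjusted p of 0.0647, and Grin2c was called in 5 of the 11 fits that left out 1 sample. Over these fits 1 (without mimic replicate 2) to 3 of the 7 subunits were called. Of 7 kainate receptor subunits and Neto proteins 0 were called by edgeR or DESeq2, and 2 had an unadjusted p under 0.05. Whether the AMPA receptor genes differ in their response from the NMDA receptor genes was not tested.

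**Figure D5:**
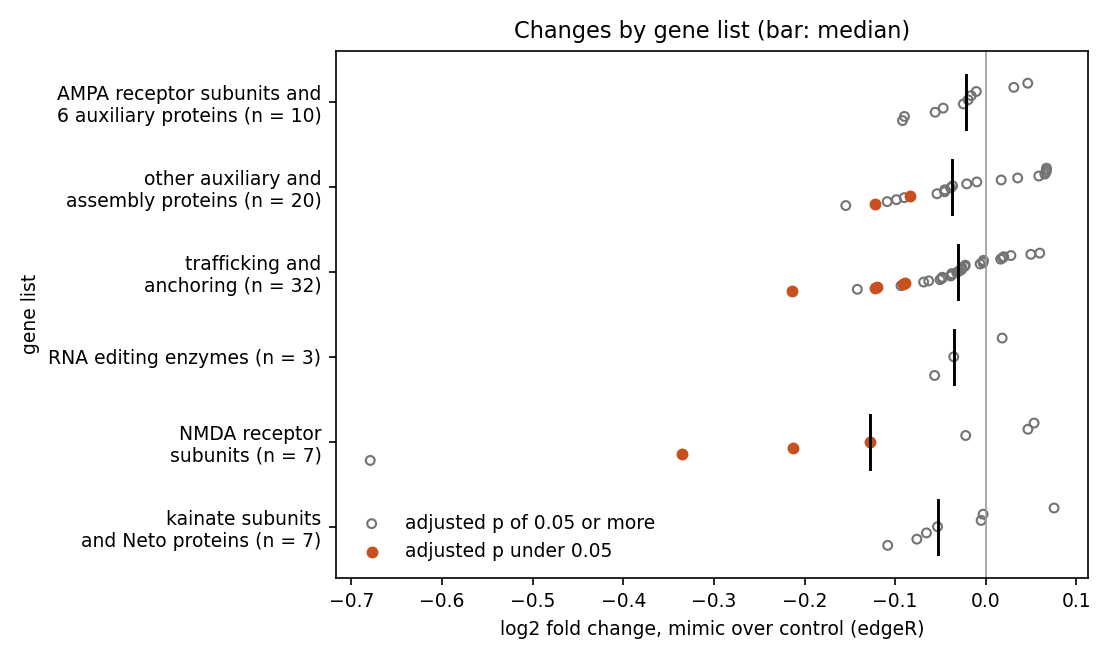
Log2 fold change (mimic over control) of each gene in 6 lists, filled where the edgeR adjusted p was under 0.05, with a bar at each list's median. No AMPA receptor gene or auxiliary protein of the 10 is filled, against 2 of 20, 5 of 32, 0 of 3, 3 of 7 and 0 of 7 in the other lists.

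Finally, the genes whose log2 CPM followed Gria2 most closely over the 11 samples were listed as a description. The samples share their libraries and a group difference, and the best of 13928 genes must be high. They were Mpv17l, Nufip2 and Picalm, with Pearson's r between 0.949 and 0.966 and Spearman's rho between 0.918 and 0.973, and r between 0.919 and 0.932 without mimic replicates 2 and 5. None of the 3 genes was called.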

How the data were processed

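Libraries from poly(A) RNA (TruSeq v2, 50 bp single-end reads) were mapped by the authors to mm10 with STAR 2.5.2b and counted per gene with featureCounts (Subread 1.5.1). The deposited values are raw counts per sample; the deposited normalized table is a signal equal to those counts divided by 1 factor per sample and served as an alternative. TruSeq v2 does not mark strand, and the annotation used is not given in the sources used here. GENCODE M21 (GRCm38) matched 48349 of 48709 genes and gave their symbols and lengths, and 3′ UTRs where annotated. Genes reaching 5 counts in 50% or more of the 11 samples were tested (17365) with edgeR 4.0.16 (two-sided quasi-likelihood test, TMM, Benjamini-Hochberg over all tested genes, called under 0.05). The study used DESeq2, here an alternative (1.42.0), as was limma 3.58.1 on log2(value + 1). A count of 0 allows 0.0631 to 0.175 CPM (3 counts), counting error only. Scripts were tested on simulated data.

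The members and gene lists were chosen with earlier results of these data known. Named were the 10 members, in each other list up to 5 called genes with the smallest p, the 3 editing enzymes, and for Gria1 and Gria2 the 3 most correlated genes, of which those for Gria1 are not reported here. No library was a copy of another in its group: chi-square per degree of freedom was 1.23 or more for each pair within a group. This check cannot tell separate cultures from separate libraries of one culture.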

Additional observations from a re-analysis of the deposited data

Results flagged for a closer look

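The Cacng2 level of control replicate 6 stood apart from the other control samples. On the log2 scale it was 5.57, the next sample was at 5.70 and the highest at 5.76, so the gap took 0.690 of the range of the group. Among 34 series of values examined (10 genes and 7 marker lists in both groups), this was the 1 such sample, where chance flags about 5%, or 1.7.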

How the results depend on the processing

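None of the 10 genes was called under any of 19 alternatives (other tools, scaling, count filters, each of the 11 samples left out, the replicate block and the authors' table), and 186 of 190 values kept their direction. The exceptions were Cacng2, at 0.00689 without control replicate 2 and 0.00125 without mimic replicate 3 (log2, range -0.0298 to 0.00689), and Cacng3, at 0.0233 without control replicate 3 and 0.0208 without mimic replicate 5 (range -0.0385 to 0.0233). Among the 10, 8 values were below 0 with TMM, RLE and upper-quartile factors alike. Over all genes 495 were called, 785 without a count filter, and 218 (without control replicate 1) to 491 when 1 sample was left out, with 237 without mimic replicate 2 and 278 without mimic replicate 4. Upper-quartile factors gave 226 lower and 234 higher, against 307 and 188. Of the associated genes 7 were called, 3 with upper-quartile factors and 2 to 5 when 1 sample was left out. Samples that share a number showed no sign of pairing by it (correlations of their deviations -0.0918 to 0.101, other pairs -0.199 to 0.188). No test was run on these correlations, and they do not exclude pairing. With the replicate block, which leaves out control replicate 6, 328 genes and 4 associated genes were called. The cause of these shifts was not tested.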
